A study of Sus scrofa with 4 samples.

Results

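Interferon-stimulated genes were followed through sorted skin cells of LGR5-H2B-GFP pigs. They comprised 9 genes, the RNA sensors IFIH1 and DHX58, the transcription factors IRF7 and IRF9, and the antiviral effectors ISG15, MX1, MX2, IFIT1 and ISG12(A), out of 29837 named genes in the count table. All 9 passed the filter on low counts, as did 15980 genes in all. The genes were picked by name with values of these same libraries in view, so their levels and differences are given as a description, without a test. In both pigs 1 LGR5 allele carried H2B-GFP, a histone joined to green fluorescent protein, inserted at the start of the gene with CRISPR/Cas9 in fetal fibroblasts that were then cloned by nuclear transfer. Whether 88R and 95R were clones or their offspring is not given in the labels, and neither pig lacked the transgene. Epidermal cells of these juvenile pigs were freed with Dispase and trypsin and sorted by fluorescence. The cells with high GFP are called LGR5-high and those without GFP LGR5-negative, and 1 poly(A) RNA library was made from each population of each pig. The question of the series was how LGR5-high differs from LGR5-negative. Because both pigs gave both populations, the same 4 libraries also separate the difference between the populations from the difference between the animals.

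Type I and type III interferons are cytokines that cells release when they sense viral RNA or DNA. Their receptors signal through the kinases JAK1 and TYK2 to transcription factors, among them STAT2 with IRF9, which switch on interferon-stimulated genes. The products include the sensors and factors that feed the response itself and effectors that block viral entry, translation or assembly. Keratinocytes respond to interferons and can make some of them, and many stem cells are known to hold part of this gene set at a raised level without infection.

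The libraries held between 30696803 and 32463362 counts on named genes. A floor of 3 counts corresponded to 0.0873 to 0.105 CPM (CPM stands for counts scaled to a common library size, with edgeR's TMM factors), depending on the library. The sorted gene itself was read first. LGR5 had 132 and 188 CPM in LGR5-high of pigs 88R and 95R, and 1.26 and 3.61 CPM in LGR5-negative. It was thus itself called lower in 88R, by -0.71 on the log2 scale (standard error 0.147, adjusted p = 0.00799 by edgeR). The basal keratinocyte gene KRT5 was between 23664 and 29558 CPM in the 4 libraries. KRT15, also basal, was 1116 and 715 CPM in LGR5-high and LGR5-negative of 88R, against 2345 and 1324 CPM in 95R. It was the 1 of 5 basal genes called between the pigs, lower in 88R (adjusted p = 3.93e-06 by edgeR). In LGR5-high 2 of the 5, ITGA6 and COL17A1, were called lower. KRT10 of the suprabasal layers was 31045 and 26592 CPM in LGR5-negative against 2771 and 2557 CPM in LGR5-high.

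All 9 genes had their highest level in the LGR5-high library of pig 88R. Each of them was also higher in 88R than in 95R within LGR5-high and within LGR5-negative, by 2.24-fold to 15.6-fold in LGR5-high and by 1.29-fold to 7.47-fold in LGR5-negative. The difference between the populations was less uniform. DHX58, MX1, IFIT1 and ISG12(A) were higher in LGR5-high in both pigs, IRF9 was nearly level, and IFIH1, IRF7, ISG15 and MX2 had opposite signs in the 2 pigs. Ratios are given as log2 values or as folds of CPM with a prior count of 2 added, and 95% Poisson intervals quoted for a level cover counting error only. In RNA from a bulk sort, more cells of a kind and more RNA per cell cannot be told apart. With 1 animal on each side, the pig, its dissociation and sort, and its libraries cannot be told apart either.

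**Figure D1:**
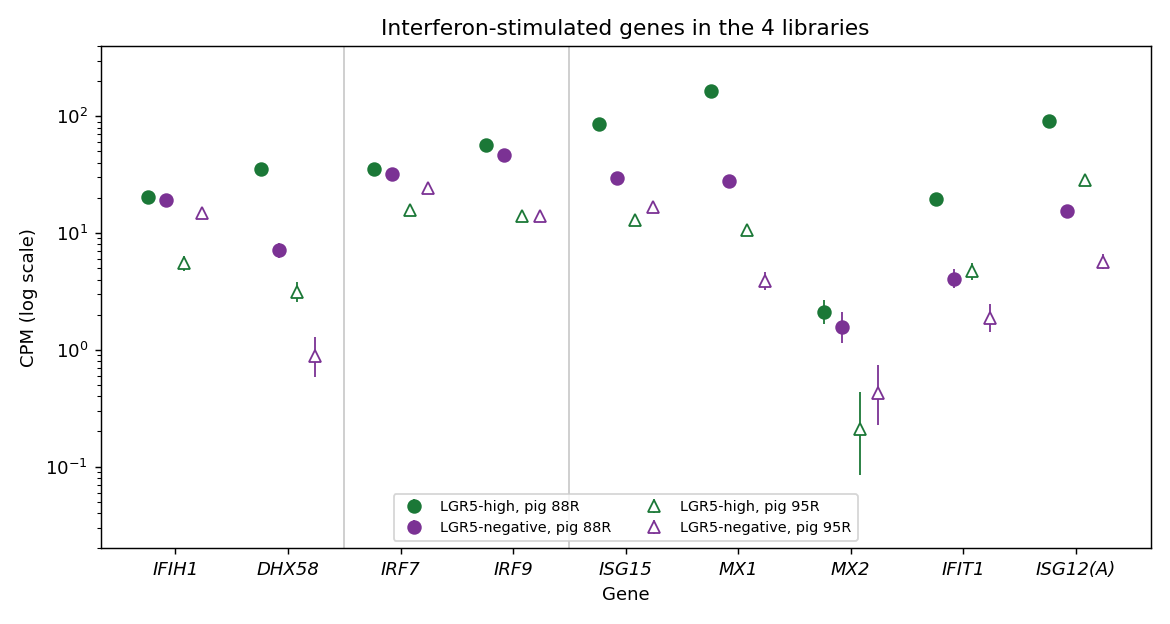
Level of the 9 interferon-stimulated genes in the 4 libraries, in CPM on a log scale, with green for LGR5-high, purple for LGR5-negative, filled circles for pig 88R and open triangles for pig 95R. Bars are 95% Poisson intervals, and the grey lines part the sensors, the transcription factors and the effectors. The filled green circle of LGR5-high in 88R is the highest point for each gene.

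IFIH1 encodes MDA5, a helicase that detects long double-stranded RNA in the cytoplasm. In pig 88R it had 20.3 CPM in the LGR5-high library and 19.3 CPM in the LGR5-negative one, and in pig 95R the corresponding levels were 5.54 and 15.0 CPM. LGR5-high of 95R was the low library, and the intervals of both 88R libraries overlapped. The log2 ratio of LGR5-high to LGR5-negative was 0.07 in 88R and -1.42 in 95R. Between the pigs, the level was 3.63-fold higher in 88R in LGR5-high and 1.29-fold higher in LGR5-negative. DHX58 encodes LGP2, a relative of MDA5 that binds RNA but has no signalling domain and modulates MDA5 and RIG-I. Its levels were 35.2 CPM (LGR5-high) and 7.09 CPM (LGR5-negative) in 88R, against 3.15 and 0.893 CPM in LGR5-high and LGR5-negative of 95R. Here both axes were wide. LGR5-high exceeded LGR5-negative 4.93-fold in 88R and 3.36-fold in 95R, and 88R exceeded 95R 11.0-fold in LGR5-high and 7.47-fold in LGR5-negative. Even the LGR5-negative cells of 88R held more DHX58 than the LGR5-high cells of 95R, and no intervals overlapped.

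IRF7 encodes the factor that drives the interferon alpha genes and amplifies the response. It had 35.3 and 32.0 CPM in LGR5-high and LGR5-negative of 88R, and 15.7 and 24.3 CPM in LGR5-high and LGR5-negative of 95R. The counting intervals of the populations of 88R overlapped, whereas in 95R LGR5-high was the lower population, with log2 ratios of 0.14 and -0.63. IRF9 encodes the DNA-binding partner of STAT2. Its levels were 56.9 and 46.2 CPM in 88R and 14.1 and 13.9 CPM in 95R, LGR5-high first, so the animals lay further apart than the populations. The fitted log2 difference between the pigs, with the population in the model, was 1.88 (standard error 0.120) for IRF9 and 0.78 (standard error 0.150) for IRF7.

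MX1 and MX2 encode dynamin-like GTPases that trap viral components, and the genes lie next to each other in the RefSeq annotation of the Sscrofa11.1 assembly. MX1 had 166 CPM in the LGR5-high and 28.0 CPM in the LGR5-negative cells of 88R, and 10.5 and 3.90 CPM in those of 95R. No library overlapped another within counting error. LGR5-high was 5.89-fold above LGR5-negative in 88R and 2.67-fold above it in 95R, and 88R was 15.6-fold above 95R in LGR5-high and 7.08-fold above it in LGR5-negative. By its fitted log2 difference of 3.52 (standard error 0.186), MX1 ranked 11 of the 15980 tested genes in order of the excess in 88R. MX2 was the most thinly covered of the 9, with 73 and 45 counts in LGR5-high and LGR5-negative of 88R and 7 and 13 counts in those of 95R. Its levels of 2.12, 1.58, 0.212 and 0.430 CPM, in the same order, put both 88R libraries above both 95R libraries. Within a pig, the intervals of the populations overlapped, and the log2 ratios of LGR5-high to LGR5-negative were 0.41 and -0.84. MX1 and MX2 are similar in sequence, and how reads that match both were counted is not given in the sources used here.

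ISG15 encodes a ubiquitin-like modifier that is attached to viral and host proteins. It had 85.4 CPM in LGR5-high of 88R, 29.4 CPM in LGR5-negative of 88R, 13.0 CPM in LGR5-high of 95R and 16.7 CPM in LGR5-negative of 95R. The 2.90-fold excess of LGR5-high in 88R therefore had no counterpart in 95R, where the ratio was 0.778. Between the pigs, the level was 6.53-fold higher in 88R in LGR5-high and 1.76-fold higher in LGR5-negative. IFIT1, whose product binds foreign 5′ ends of RNA and blocks their translation, followed the sort in both animals. Its levels were 19.5 CPM in LGR5-high of 88R, 4.69 CPM in LGR5-high of 95R, 4.07 CPM in LGR5-negative of 88R and 1.89 CPM in LGR5-negative of 95R. Both LGR5-high libraries were above both LGR5-negative libraries, although LGR5-high of 95R and LGR5-negative of 88R overlapped within counting error.

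ISG12(A), the pig gene of the IFI27 family of small mitochondrial and membrane proteins, was the member in which the sort outweighed the animal by most. It had 90.4 and 28.3 CPM in LGR5-high of 88R and 95R, and 15.3 and 5.69 CPM in LGR5-negative of the same pigs. LGR5-high exceeded LGR5-negative 5.87-fold in 88R and 4.93-fold in 95R, so the ratio was almost the same in both animals. The excess of 88R over 95R was 3.18-fold in LGR5-high and 2.68-fold in LGR5-negative. All 4 libraries were apart within counting error, in the order LGR5-high of 88R, LGR5-high of 95R, LGR5-negative of 88R and LGR5-negative of 95R.

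To set both axes on 1 scale, the sum of squares of each gene's log2 CPM over the 4 libraries was split into a part for the population, a part for the pig and a remainder, which is the change of the population ratio between pigs. IRF9 was almost wholly a difference between animals, with 98.7% for the pig and 0.745% for the population. MX2 had 92.7% for the pig, IRF7 74.5%, MX1 72.9%, ISG15 71.4%, DHX58 70.8% and IFIH1 55.0%. ISG12(A) and IFIT1 were the 2 members with the larger part for the population, 71.0% and 53.8%. The remainder was largest for IFIH1 at 24.6%, ISG15 at 20.7% and IRF7 at 18.1%, and under 1% for IRF9, DHX58 and ISG12(A). The median over the members was 71.4% for the pig and 20.3% for the population, beside 6.24% and 83.7% over all tested genes. The part for the pig exceeded that for the population in 7 of the 9 members and in 18.7% of all tested genes.

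**Figure D2:**
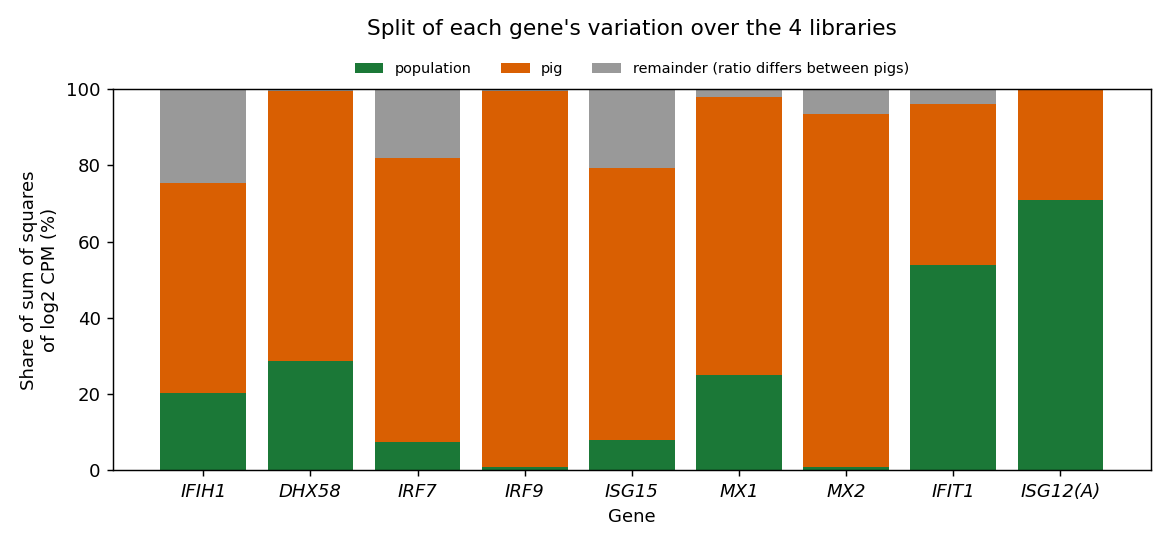
Split of the sum of squares of log2 CPM over the 4 libraries for each gene, in percent, into population (green), pig (orange) and the remainder (grey). The orange part is the larger one for 7 genes, and the green part for IFIT1 (53.8%) and ISG12(A) (71.0%).

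The comparison of pigs 88R and 95R used edgeR's quasi-likelihood test in a model that also held the population. That model left 1 residual degree of freedom, and the test does not measure the spread among animals. At an adjusted p-value under 0.05, 2.52% of all tested genes were higher in 88R and 1.78% were lower, and all 9 members were among the higher ones. Both libraries of 88R lay above both of 95R for 7 members, all but IFIT1 and ISG12(A), and for 7% of all tested genes. Since the members were chosen on such values, nothing further is read from these counts. The fitted log2 differences were 3.32 (standard error 0.189) for DHX58, 2.53 (0.445) for MX2, 1.78 (0.268) for ISG15, 1.68 (0.221) for IFIT1, 1.57 (0.121) for ISG12(A) and 1.08 (0.232) for IFIH1. In all 9 members the log2 difference between the pigs was larger in LGR5-high than in LGR5-negative, with medians of 2.04 and 1.42, as it was in 51.7% of all tested genes. For ISG15 the gap between the populations was the widest, 2.71 in LGR5-high against 0.81 in LGR5-negative, followed by IFIH1 with 1.86 against 0.37. It was narrow for ISG12(A), with 1.67 against 1.42, and for IRF9, with 2.01 against 1.73. A library for each pig and population leaves no residual for a test of this gap.

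**Figure D3:**
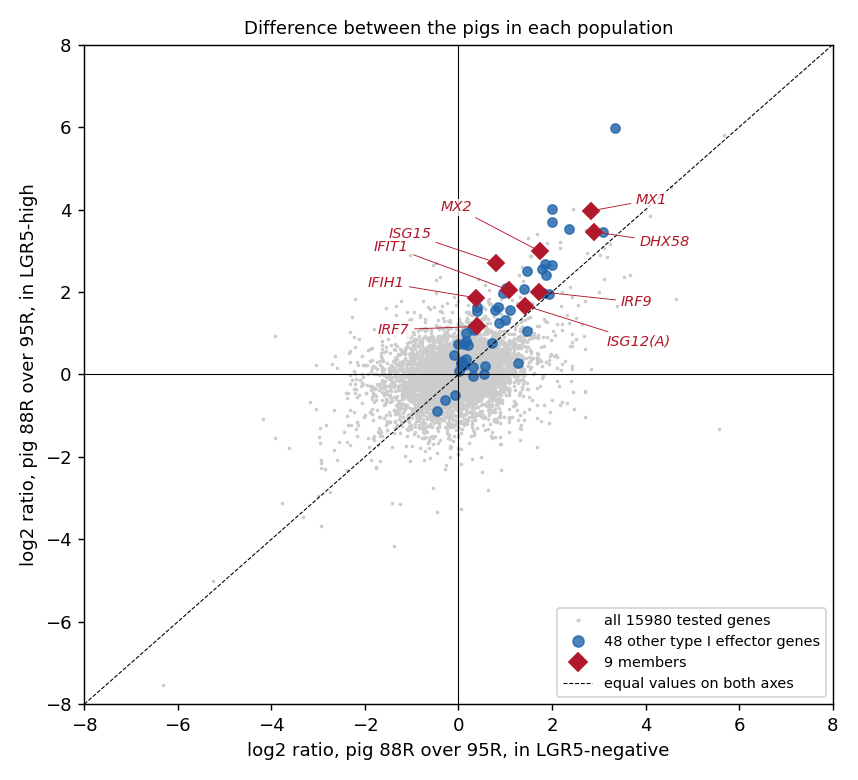
Log2 ratio of pig 88R to pig 95R in LGR5-high (vertical axis) against that in LGR5-negative (horizontal axis), 1 point per gene, with the 9 members in red, 48 other type I effector genes in blue and all 15980 tested genes in grey. The red points lie right of and above 0 and above the dashed line of equal values, from IRF7 at 0.40 and 1.16 to MX1 at 2.82 and 3.97.

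The populations were compared by the same test without the pig in the model. It placed 22.7% of all tested genes higher and 22% lower in LGR5-high, and of the members 1 was higher, ISG12(A), and 0 were lower (also 0 at an unadjusted p-value under 0.05 and 0 by DESeq2). When the pig entered as a replicate block, these shares became 28.5% and 27.2%. Of the members 5, DHX58, ISG15, MX1, IFIT1 and ISG12(A), were then higher and 1, IFIH1, was lower. As above, these counts describe genes chosen on such values. The fitted log2 fold changes without the block were 2.50 (standard error 0.669) for ISG12(A), 2.47 (1.34) for MX1, 2.27 (1.25) for DHX58 and 2.03 (0.716) for IFIT1, and these errors include the difference between the animals. Both LGR5-high libraries were above both LGR5-negative libraries for 2 members, IFIT1 and ISG12(A), against 39.2% of all tested genes. The ratio had opposite signs in the pigs for 4 members, against 14.2% of all tested genes. Without the LGR5-high library of 88R the fitted values of DHX58 and MX1 were -0.35 and -0.61, in a comparison that sets 1 LGR5-high library of 95R against LGR5-negative of both pigs and so carries the difference between the animals. Within 95R alone LGR5-high was above LGR5-negative for DHX58 (3.36-fold), MX1 (2.67-fold), IFIT1 (2.44-fold) and ISG12(A) (4.93-fold).

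**Figure D4:**
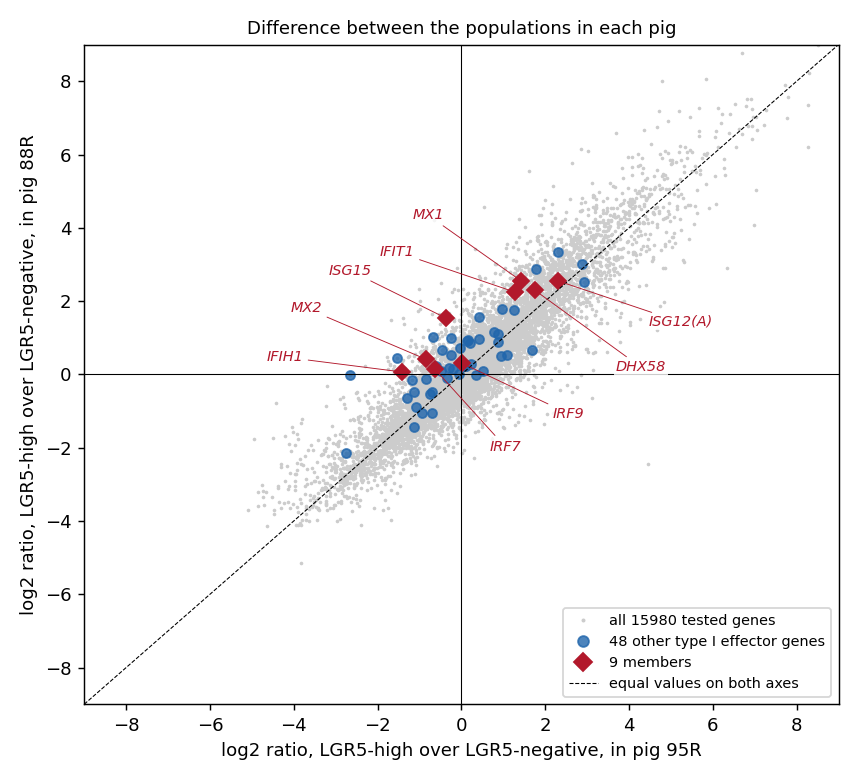
Log2 ratio of LGR5-high to LGR5-negative in pig 88R (vertical axis) against that in pig 95R (horizontal axis), 1 point per gene, with the same colours as the plot of the pigs. DHX58, MX1, IFIT1 and ISG12(A) lie at the upper right with values between 1.29 and 2.56, and IFIH1, IRF7, ISG15 and MX2 lie left of 0 and above 0.

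The rest of the interferon pathway was read from a list of 148 other genes, of which 123 were in the count table and 107 passed the filter. Of these 107, 34 were higher and 5 lower in 88R (edgeR's quasi-likelihood test, adjusted p-value under 0.05), and 12 were higher and 33 lower in LGR5-high. With the pig as a replicate block 26 were higher and 43 lower in LGR5-high. Over all tested genes, 2.52% were higher and 1.78% lower in 88R, and 22.7% higher and 22% lower in LGR5-high. With the block, 28.5% of all tested genes were higher and 27.2% lower in LGR5-high. The list was compiled by role, with earlier results of these data known.

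Among the ligands, interferon transcripts were scarce. Of 34 interferon genes in the table, 9 had no count in any library and 18 had no more than 3 counts in any, the 9 included. IFNB1 and IFNG had 0 counts in all 4 libraries and IFNK, an interferon of keratinocytes, 1 count in all. Outside IFNE no interferon gene exceeded 16 counts in a library. IFNE, the interferon epsilon gene known from epithelia, was the exception, with 130 and 129 counts in LGR5-high of 88R and 95R and 20 and 28 counts in LGR5-negative. It was higher in LGR5-high by 2.23 on the log2 scale (standard error 0.285, adjusted p = 0.00207 by edgeR). A difference between the pigs was not detectable in IFNE, with a log2 difference of -0.16 (standard error 0.294, adjusted p = 0.899 by edgeR) and of -0.05 and -0.37 within LGR5-high and LGR5-negative. The interferon genes resemble each other, and how reads shared between them were counted is not given in the sources used here.

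Of 9 receptor and kinase genes, 1 was higher and 4 lower in LGR5-high, beside 22.7% and 22% of all tested genes. Between the pigs 0 were called by edgeR (2 at an unadjusted p-value under 0.05, both higher in 88R), 0 by DESeq2 and 1 by limma-voom. The type I receptor chains moved apart. IFNAR2 was 11.8 and 9.47 CPM in LGR5-high and 7.33 and 5.39 CPM in LGR5-negative of 88R and 95R, a log2 fold change of 0.74 (standard error 0.221, adjusted p = 0.0388). IFNAR1 was 22.1 and 17.2 CPM in LGR5-high against 27.2 and 30.1 CPM in LGR5-negative, a log2 fold change of -0.54 (standard error 0.155, adjusted p = 0.0345). Both calls were lost without LGR5-negative of 95R (adjusted p = 0.124 and 0.0857 by edgeR) and without LGR5-high of 95R (0.0691 and 0.153), that of IFNAR2 also without LGR5-high of 88R (0.197), and that of IFNAR1 also with library size only (0.148) and upper quartile scaling (0.0552). Over 13 alternatives adjusted p lay between 0.000997 and 0.199 for IFNAR2 and between 0.00210 and 0.196 for IFNAR1. IFNGR1 of the interferon gamma receptor, IFNLR1 of the interferon lambda receptor and the kinase gene JAK1 were lower in LGR5-high by -0.60, -0.73 and -0.70 on the log2 scale. Without LGR5-high of 95R, IFNGR1 and IFNLR1 no longer passed, at adjusted p = 0.0624 and 0.0644 by edgeR, while the largest adjusted p over 13 alternatives was 0.0766 and 0.101.

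Of 12 other sensors and adaptors, 3 were higher in 88R, namely DDX58, TRIM25 and ZBP1. DDX58 encodes RIG-I, the third helicase of the family of IFIH1 and DHX58. Its levels were 117 and 47.4 CPM in LGR5-high and LGR5-negative of 88R, and 15.9 and 16.3 CPM in those of 95R. The log2 difference between the pigs was 2.23 (standard error 0.202, adjusted p = 3.13e-06 by edgeR). In LGR5-high 2 of the 12 were higher and 3 lower, beside 22.7% and 22% of all tested genes. The lower ones were TLR3, a sensor of double-stranded RNA in endosomes, its adaptor TICAM1 and the adaptor MYD88. TRIM25, ZBP1 and these last genes were named after their values were seen. The 2 genes higher in LGR5-high are not named, and both counts lie near the shares over all tested genes.

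Of 9 other transcription factors, STAT2, the partner of IRF9, was higher in 88R, and IRF1 and IRF8 were lower. STAT2 had 86.6 and 77.6 CPM in LGR5-high and LGR5-negative of 88R and 49.3 and 68.6 CPM in those of 95R. As for IFIH1 and IRF7, LGR5-high of 95R was the low library. The log2 difference between the pigs was 0.49 for STAT2 (standard error 0.121, adjusted p = 0.0251 by edgeR), with 0.81 in LGR5-high and 0.18 in LGR5-negative. The call was lost with DESeq2 and with 3 other scalings, and adjusted p ranged from 3.84e-05 to 0.178 over 7 alternatives. IRF1, a factor of the interferon gamma response, was lower in 88R by -0.37, and IRF8, a factor of myeloid cells, by -0.84. These calls too were lost with DESeq2, with its size factors and with library size only, that of IRF8 also with upper quartile scaling, and adjusted p rose to 0.133 and 0.639 at most. Among 6 negative regulators 1 was higher in 88R, USP18, which removes ISG15 from proteins and blocks IFNAR2. It was named after its values were seen and had 65.8, 16.3, 7.20 and 4.33 CPM in LGR5-high of 88R, LGR5-negative of 88R, LGR5-high of 95R and LGR5-negative of 95R. SOCS1 and SOCS3, suppressors of JAK signalling, were among the 4 that were lower in LGR5-high.

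The 48 other effector genes of the type I response were mostly higher in 88R as well. Of them 27 were higher and 0 lower in 88R by edgeR's quasi-likelihood test (32 and 1 at an unadjusted p-value under 0.05). DESeq2 called 19 higher and 0 lower, and limma-voom 29 and 0. Their median log2 difference was 0.73, beside 1.78 for the members and -0.01 for all tested genes. At least a 2-fold excess in 88R was seen for 26 of the 48 in LGR5-high and for 17 in LGR5-negative, beside 9 and 6 of the 9 members and 1.77% and 2.68% of all tested genes. The difference was larger in LGR5-high than in LGR5-negative for 39 of the 48, and for 38 or 39 under 3 other scalings.

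The largest increases in 88R were those of IFITM1, RSAD2, HERC5, OAS1 and CMPK2. IFITM1, a membrane protein that hinders viral entry, had 11.5 and 11.8 CPM in LGR5-high and LGR5-negative of 88R and 0.121 and 1.09 CPM in those of 95R, a log2 difference of 4.37 (standard error 0.378, adjusted p = 1.74e-06 by edgeR). RSAD2, the enzyme viperin, had 4.92 and 4.42 CPM in 88R against 0.394 and 0.463 CPM in 95R. Its populations were nearly level and its animals apart. HERC5, the ligase that attaches ISG15, had 40.0 and 13.4 CPM in 88R against 3.42 and 2.55 CPM in 95R. OAS1, a synthetase whose product activates the nuclease RNase L, and CMPK2, a mitochondrial nucleotide kinase, differed by 3.01 and 2.92 on the log2 scale. Some of these differences rest on few counts in LGR5-high and LGR5-negative of 95R. They were 4 and 33 for IFITM1, 13 and 14 for RSAD2 and 8 and 25 for OAS1. The IFITM genes are close relatives, and the counting of their shared reads is not given either.

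In the comparison of the populations, 7 of the 48 effector genes were higher and 7 lower in LGR5-high, beside 22.7% and 22% of all tested genes, and with the pig as a replicate block 17 were higher and 11 lower. LGALS3BP, a secreted glycoprotein, had 110 CPM (LGR5-high) and 10.7 CPM (LGR5-negative) in 88R and 19.0 and 3.81 CPM in those of 95R, a log2 fold change of 3.16 (standard error 0.898, adjusted p = 0.0337 by edgeR). DDX60, a helicase, had 20.7 and 2.49 CPM in 88R and 5.24 and 0.662 CPM in 95R, a log2 fold change of 3.05 (standard error 0.832, adjusted p = 0.0295). IFIT2 and IFIT3, which lie beside IFIT1 in the Sscrofa11.1 annotation and act with its product, were higher by 2.78 and 2.63 (adjusted p = 0.0148 and 0.0326). These genes shared the form of DHX58, MX1, IFIT1 and ISG12(A), higher in LGR5-high within each pig and higher in 88R within each population. For IFIT2 the difference between the pigs rests on 24 and 8 counts in LGR5-negative. Its call as higher in 88R was lost in 4 of 6 alternatives, with adjusted p up to 0.587 by DESeq2. Without LGR5-high of 88R, LGALS3BP, DDX60, IFIT3 and IFIT2 were no longer called higher in LGR5-high, with fitted log2 values of 1.39, 1.72, 1.21 and 2.14. Without LGR5-negative of 95R the same held for LGALS3BP, DDX60 and IFIT3, with 2.58, 2.37 and 2.18. Each of these fits leaves 1 library in a population and so carries the difference between the animals. Within 88R and 95R LGR5-high was 10.2-fold and 4.94-fold above LGR5-negative for LGALS3BP and 8.13-fold and 7.31-fold for DDX60. It was 7.28-fold and 3.46-fold above for IFIT3 and 5.76-fold and 7.66-fold for IFIT2. Over all alternatives adjusted p ranged from 2.61e-10 to 0.295 for LGALS3BP, from 1.26e-09 to 0.259 for DDX60, from 8.58e-08 to 0.297 for IFIT3 and from 1.45e-06 to 0.170 for IFIT2. The count of effectors called higher was 2 without LGR5-high of 88R and 3 without LGR5-negative of 95R. TNFSF10, the death ligand TRAIL, was lower in LGR5-high by -2.40 on the log2 scale (adjusted p = 8.36e-04).

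Genes of the interferon gamma response and of antigen processing took another course. Of 22, 0 were higher and 11 lower in LGR5-high by edgeR, beside 22.7% and 22% of all tested genes. The counts were 0 and 13 at an unadjusted p-value under 0.05, and 0 and 12 by DESeq2. Between the pigs 2 were higher and 3 lower in 88R, beside 2.52% and 1.78% of all tested genes. The chemokine CXCL11 was lower in LGR5-high by -2.71, and the class I antigen genes SLA-2 and SLA-1 by -2.18 and -1.88. SLA-1 had 34.9 and 144 CPM in LGR5-high and LGR5-negative of 88R and 83.2 and 289 CPM in those of 95R. It was therefore lower in 88R, by -1.13 (standard error 0.0956, adjusted p = 1.36e-06), opposite to the members, and SLA-8 and SLA-3 were lower by -0.48 and -0.47. The call of SLA-8 was lost with DESeq2 (adjusted p = 0.279, the largest over 7 alternatives) and with 3 other scalings. Class I genes vary in sequence between animals and resemble each other, and how this bears on their counts was not tested. The call of SLA-1 as lower in LGR5-high was lost without LGR5-high of 88R and without LGR5-negative of 95R. The fitted log2 values were then -1.39 and -1.29, in comparisons that carry the difference between the animals. Over 13 alternatives adjusted p of SLA-1 ranged from 1.91e-11 (edgeR with the replicate block) to 0.234 (Student's t-test).

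**Figure D5:**
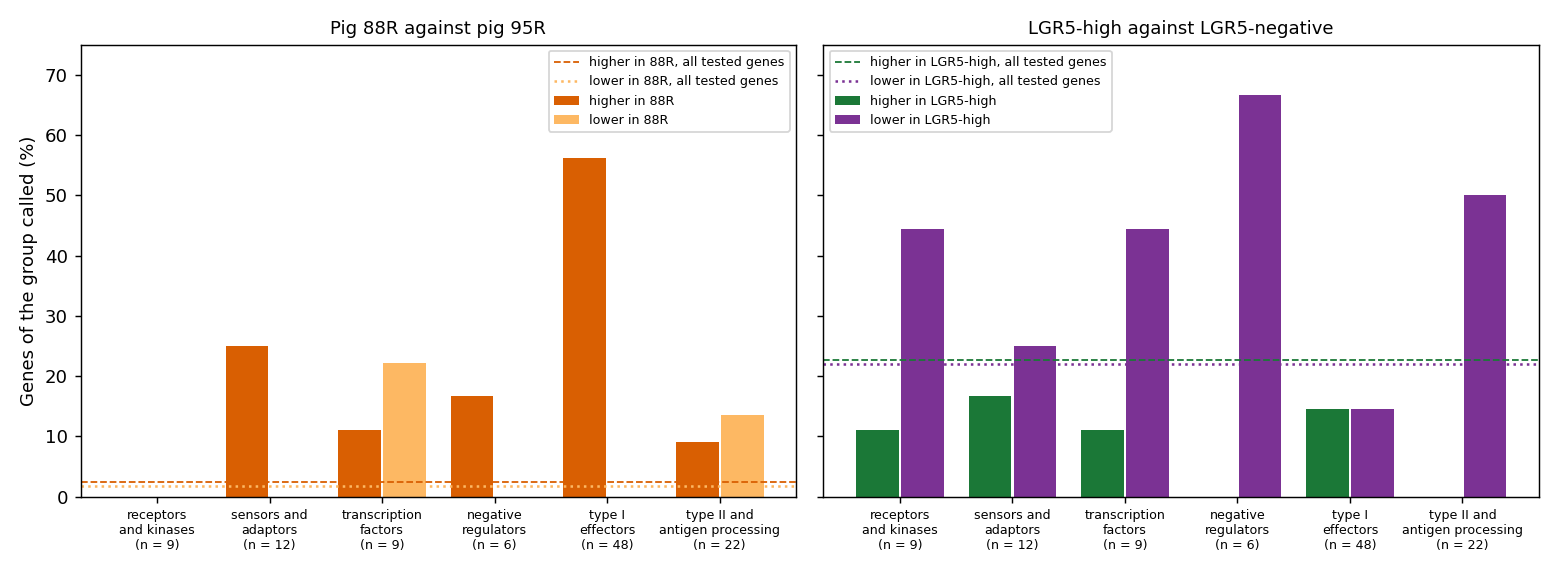
Share of each group of interferon pathway genes, without the members, that was called by edgeR's quasi-likelihood test, in percent of the genes tested (n under each group), for pig 88R against 95R (left) and LGR5-high against LGR5-negative (right). Dashed and dotted lines are the shares over all tested genes, 2.52% and 1.78% on the left and 22.7% and 22% on the right. On the left the type I effectors stand highest with 27 of 48, and no receptor or kinase is called.

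The genes with the most similar profile were sought among 13655 other genes with a mean of at least 1 CPM, by the Euclidean distance of their centred log2 CPM over the 4 libraries to the median profile of the members. That median profile was 1.65 in LGR5-high of 88R, 0.42 in LGR5-negative of 88R, -0.92 in LGR5-high of 95R and -0.95 in LGR5-negative of 95R. The nearest were DDX58 at a distance of 0.269, LOC100626247 at 0.291, HERC6 at 0.324, EIF2AK2 at 0.383, IFI44 at 0.389, FOXS1 at 0.508, SLFN11 at 0.639, BST2 at 0.660, NFATC2 at 0.722 and LOC733579 at 0.757. Of these 10, 5 genes, DDX58, HERC6, EIF2AK2, IFI44 and BST2, are in the pathway list, beside 107 of all 15980 tested genes. The members and that list were chosen with results of these data known, so this overlap is a description only. EIF2AK2 encodes PKR, a kinase that stops translation on sensing double-stranded RNA. LOC100626247 lies next to IFITM3 and IFITM1 in the annotation. The members themselves were 0.417 to 1.98 from their own median. The distance rests on 4 libraries and describes likeness of level only.

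Markers of other cells were read beside these differences. Of 7 T and NK cell genes found, 6 were under 1 CPM in all libraries, and the sum of 10.9 and 11.3 CPM in LGR5-high and of 4.56 and 3.97 CPM in LGR5-negative was nearly all CD247. Langerhans and myeloid markers summed to 29.1 and 22.5 CPM in LGR5-high and to 219 CPM in both LGR5-negative libraries. Of these 9 markers 1, LYZ, was called higher in 88R. The equal sums in LGR5-negative rest on LYZ, with 73.4 CPM in 88R and 8.47 CPM in 95R. In LGR5-negative it was the only 1 of the 9 with the higher level in 88R, whereas in LGR5-high 6 of the 9 had it. Of the plasmacytoid dendritic markers found, TLR9 and SPIB were under 1 CPM, and the sum was 2.24 and 3.72 CPM in LGR5-high and 7.44 and 12.5 CPM in LGR5-negative of 88R and 95R, the lower values in 88R. Melanocyte markers summed to 61.1 CPM in LGR5-negative of 88R and to 233 CPM in that of 95R, and fibroblast markers to 232 and 449 CPM in LGR5-high and to 351 and 228 CPM in LGR5-negative of 88R and 95R. The fibroblast sums thus lay in opposite order in the populations. COL1A1 made up much of the sum in LGR5-high, with 142 and 331 CPM, and 1 of 6, COL3A1, was higher in 88R (adjusted p = 0.0207 by edgeR). Genes that respond to tissue dissociation, such as FOS and JUN, summed to 12433 and 15678 CPM in LGR5-high and to 17063 and 20526 CPM in LGR5-negative of 88R and 95R, and 3 of 8 were lower in 88R. The part of these cells and of the dissociation in the levels of the interferon-stimulated genes was not tested. Infection, vaccination, housing and litter of the pigs are not given in the labels.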

How the data were processed

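The deposited table held raw counts of reads for each gene symbol, as the authors made it and not normalized. Per the submitters' processing notes, Trimmomatic 0.36, STAR 2.5.2b and featureCounts (Subread 1.5.2) were used, while genome build, annotation, strand setting and the treatment of reads shared by similar genes are not given in the sources used here. One entry without a gene name, 0.360% to 0.626% of counts, was left out.

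Counts were analysed with R 4.3.3 and edgeR 4.0.16 (filterByExpr with a minimum count of 10, TMM, glmQLFit and glmQLFTest, Benjamini-Hochberg over 15980 genes, threshold 0.05). Populations were compared without the pig, because the study's methods name Student's t-test and mention no pairing, and also in a paired fit (replicate block: the pig). The pairing comes from the animal; across genes, a pig's deviations in both populations correlated at 0.370. Pigs were compared with the population in the model. P-values rest on the residual spread of these 4 libraries, with 2 residual degrees of freedom without the pig and 1 with it. With the pig and the population in the model, that residual is the change of the population ratio between pigs. Such p-values do not measure the spread among animals. Log2 CPM used a prior count of 2. 

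The members and gene lists were chosen with earlier results of these data known. Named genes were the members, the 5 called pathway genes of largest change in each direction and comparison at a mean of at least 1 CPM, measured ligands and receptors, STAT2 and the 10 nearest profiles. A pathway gene is not reported here and stands in none of the list counts. Alternatives used DESeq2 1.42.0, limma-voom (limma 3.58.1), Student's t-test, which the study's methods name, other scalings and filters, and each library left out. A population fit with a library left out sets 1 library against both of the other population, and so carries the difference between the animals. Gene neighbours came from the RefSeq table of Sscrofa11.1, matched by name for all 29837 genes.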

Additional observations from a re-analysis of the deposited data

Results flagged for a closer look

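For 13 of the named genes LGR5-high was above LGR5-negative in pig 88R and below it in pig 95R. The size of this disagreement is the log2 ratio of LGR5-high to LGR5-negative in 88R minus that in 95R. With 1 library per population and pig it was not tested.

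Among the members, the difference was 1.90 for ISG15 (1.53 in 88R and -0.36 in 95R), 1.49 for IFIH1 (0.07 and -1.42), 1.26 for MX2 (0.41 and -0.84) and 0.77 for IRF7 (0.14 and -0.63). For IFIH1 and IRF7 the ratio in 88R was near 0, and both 88R libraries overlapped within counting error. The MX2 ratios rest on 7 and 13 counts in 95R.

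Among the other pathway genes, the difference was 2.01 for OAS1, 1.70 for CMPK2, 1.34 for DDX58, 0.63 for STAT2, 0.50 for IL10RB and 0.36 for RSAD2. For DDX58 the ratio was 1.31 in 88R and -0.03 in 95R, where the populations were nearly level. Among the genes with a profile close to that of the members, the difference was 1.89 for NFATC2, 1.62 for SLFN11 and 1.34 for LOC100626247. The share of all tested genes with opposite signs in the pigs was 14.2%, and small ratios of either sign are included in it.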

How the results depend on the processing

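The excess of 88R held its direction for all 9 members under each alternative that gave a value, with 6 to 9 members called higher. Of all tested genes, 402 were called higher in the main fit and 151 to 592 under the alternatives. The members were chosen on values of these same 4 libraries, so nothing further is read from this. The 27 type I effectors higher in 88R ranged from 19 to 30. Other counts between the pigs shrank with DESeq2, DESeq2 size factors, library size only and upper quartile scaling: 402 genes higher in 88R became 151, 261, 155 and 250, 284 lower became 86, 142, 107 and 178 (460 with all genes kept), and 5 lower pathway genes became 2, 2, 2 and 3. The 34 higher pathway genes became 21 with DESeq2. Leaving out a library of this comparison gave values without a test.

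Between the populations, library size only moved the all-gene median (log2) from 0.02 to 0.24 and that of pathway genes from -0.10 to 0.12, with 5473 genes higher and 2326 lower in LGR5-high and 2 members higher. Student's t-test called 544 genes higher and 502 lower, 0 members, 0 and 4 pathway genes and 0 type I effectors in either direction. With the pig as a replicate block, 5 members were higher and 1 lower, as were 26 pathway genes higher, and 17 type I effectors higher and 11 lower. With limma-voom 4 type I effectors were higher. Leaving out each library gave 2279 to 3169 genes higher and 2139 to 3004 lower, 0 to 3 members higher and 0 to 2 lower, 3 to 13 pathway genes higher, and 2 to 9 type I effectors higher and 4 to 8 lower. Median log2 fold changes then ranged from -0.84 to 1.89 for members, -0.61 to 0.043 for pathway genes and -0.64 to 0.76 for type I effectors.

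Without LGR5-high of 88R, by construction 1 pig against both, the fold change reversed for DHX58, IRF9, ISG15, MX1 and MX2. Over the libraries left out, it ranged from -0.35 to 4.41 for DHX58, -1.10 to 1.35 for IRF9, -0.84 to 1.89 for ISG15, -0.61 to 4.49 for MX1, -2.23 to 1.43 for MX2 and -9.71e-05 to 0.033 for the median of all tested genes. IRF9 was also reversed, at -0.39, without LGR5-negative of 95R.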
